A study of Homo sapiens with 6 samples.

Results

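ATXN7L3 and the other 7 genes of the SAGA deubiquitinase module were examined in MG63, a long-established line of human osteosarcoma cells, carrying either a stable hairpin against FTO, an RNA demethylase, or a control hairpin. The 8 genes were matched by symbol among the 61806 genes listed. ATXN7L3 was chosen from the comparison described here, because it had the highest estimate in the knockdown of all genes averaging 10 reads or more a library. The other 7 were chosen as its partners, paralogues or alternative catalytic subunits. The values of ATXN7L3 in this comparison are therefore a description, with no test. The control cells, shNC, carried a control hairpin and the knockdown cells, shFTO, carried the hairpin against FTO. Each group had 3 libraries of poly(A) RNA, which the labels call biological replicates. The hairpin sequences, the promoter that drives them, and whether each line was 1 clone, are not stated in these sources.

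SAGA is a large transcriptional coactivator that carries both a histone acetyltransferase and a histone deubiquitinase. In the deubiquitinase module the ubiquitin protease USP22 is held and activated by ATXN7, ATXN7L3 and ENY2, and it removes ubiquitin from histone H2B in transcribed chromatin. USP27X and USP51 are related proteases that can use ATXN7L3 and ENY2 in place of USP22, so ATXN7L3 is an adaptor shared by several enzymes.

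The deposited values were FPKM, that is reads scaled to exon length and to the library's total, and the whole reads behind them could be recovered. By these recovered reads the libraries were shallow, and it is not known whether the values come from a subset of the reads sequenced. The controls held 94349, 100992 and 93629 reads and the knockdown libraries 106245, 94083 and 103462. FTO itself was listed at 0 in all 6 libraries, so the knockdown could not be checked on its target. Of 14 mesenchymal and bone-lineage markers 11 had reads, led by the adhesion gene ALCAM, the collagen gene COL1A1 and the matrix gene SPARC, and the bone genes ALPL, BGLAP and SPP1 were at 0. Of 21 markers of other cell types 4 had reads, 10 in all. Summed reads of the bone-lineage list were 123 ± 11 per 100000 in the controls and 131 ± 6.51 in the knockdown (SD, n = 3 each, exact permutation p = 0.4), and VIM had the smallest p in limma (adjusted p = 0.772). KRT18, a keratin gene, held 6 of these, all in shFTO libraries. The summed reads of these 21 markers were 0.99 to 1.07 per 100000 in the controls and 0 to 3.76 per 100000 in the knockdown (exact permutation p = 0.4). Their part in the results was not tested.

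Genes of close sequence can share reads. The proteases are related to one another, and they were compared in their GENCODE 29 transcripts on GRCh38. USP22 and USP27X were 81.1% identical over 1160 aligned coding bases, USP22 and USP51 73% over 1520, and USP27X and USP51 79.6% over 1265. The longest identical runs of these pairs were 21, 20 and 36 bases.

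The promoters of ATXN7L3, the adaptor, and USP22, the catalytic subunit, are shown because both genes had every knockdown library above every control in the values that follow. Each is the 250 bases before the RefSeq start on GRCh38.p14, minus strand, at chr17:44199885-44200134 for ATXN7L3 and chr17:21043012-21043261 for USP22. Capitals mark GGGCGG on either strand, the core of a GC box. Both RefSeq starts lie inside the gene spans of the deposited table, which reach 44200113 for ATXN7L3 and 21043760 for USP22. The ATXN7L3 window thus lies mostly, and the USP22 window wholly, inside the span of its gene. The last bases of the USP22 window fall in the first exon of a GENCODE transcript.
ATXN7L3: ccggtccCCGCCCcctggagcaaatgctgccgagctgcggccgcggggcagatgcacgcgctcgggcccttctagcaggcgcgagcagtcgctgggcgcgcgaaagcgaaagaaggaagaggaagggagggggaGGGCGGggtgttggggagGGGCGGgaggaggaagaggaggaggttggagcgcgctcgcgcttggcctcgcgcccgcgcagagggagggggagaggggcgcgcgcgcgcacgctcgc
USP22: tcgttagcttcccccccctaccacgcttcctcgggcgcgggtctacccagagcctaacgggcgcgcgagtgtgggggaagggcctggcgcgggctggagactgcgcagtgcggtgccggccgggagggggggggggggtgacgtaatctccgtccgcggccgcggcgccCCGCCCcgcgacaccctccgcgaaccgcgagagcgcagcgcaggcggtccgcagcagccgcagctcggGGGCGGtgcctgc
The ATXN7L3 window had a GC content of 74.4%, 33 CpG dinucleotides and 3 GGGCGG matches. The USP22 window had a GC content of 76.8%, 36 CpG and 2 matches. Over 27305 promoter windows of the same length the median GC content was 58% and the median number of CpG was 11, and 42.3% of windows held GGGCGG. More CpG than ATXN7L3 were found in 6.61% of windows and more than USP22 in 3.87%. Neither window held CCAAT, present in 33% of windows, or TATAAA, present in 11.1%, on either strand. These matches describe letters only. ATXN7L1, whose groups overlapped, had a GC content of 82.4%, 37 CpG and 6 GGGCGG matches in its window. The window of USP27X had 69.2%, 21 and 2, and that of ATXN7L2 62.4%, 13 and 0. High GC and CpG were therefore not particular to the 2 promoters shown. Of the 8 genes, 6 had an entry in the promoter table. ENY2, which in FPKM also had every knockdown library above every control, had no entry.

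GGACT, a common form of the motif at which messenger RNA carries N6-methyladenosine, was counted on the sense strand of the longest coding transcript, since FTO can remove this mark. ATXN7L3 held 8 copies in 3811 bases, or 2.1 per kilobase, with 2 before, 1 within and 5 after the coding sequence. That density was exceeded by 8.01% of 19684 genes, whose median was 0.927 per kilobase. ENY2 held 1.71 per kilobase, USP27X 1.91 and USP22 0.958. ATXN7L2 held 1.29, ATXN7 1.02, USP51 0.908 and ATXN7L1 0.738. For genes that averaged 10 reads or more a library, of which 673 had a coding transcript here, the median was 0.773 per kilobase. A match is not a methylated site, and methylation was not measured here.

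ATXN7L3 (ENSG00000087152) lies on chromosome 17 from 44191805 to 44200113, minus strand, with an exonic length of 5333 bases. Its FPKM was 21.86, 13 and 4.01 in control replicates 1 to 3 and 30, 37.87 and 48.93 in knockdown replicates 1 to 3. These values stand for 11, 7 and 2 reads against 17, 19 and 27 reads. Every knockdown library was above every control library, and among the controls replicate 3 was the lowest. The means were 13 ± 8.93 and 38.9 ± 9.51 FPKM (SD, n = 3 each), with 20 reads in all in the controls and 63 in the knockdown. Scaled to the library totals the read ratio was 3, with an exact 95% counting interval of 1.79 to 5.23. The interval covers counting error only and does not allow for the choice of the gene, so it is no test.

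The log2 change of ATXN7L3 was 1.74 (SE 0.48) on log2(FPKM + 1) and 1.58 (SE 0.50) in the fit to reads that chose it. Leaving out control replicate 3 lowered the read ratio to 2.25 and leaving out control replicate 1 raised it to 4.48. Over 14 alternatives of the fits its log2 change ran from 1.13 without control replicate 3 to 2.23 without control replicate 1. Its sign was fixed by the choice of the gene, and its size, picked as the highest of 705 estimates, is likely overstated. Within the groups its reads scattered 2.19 times as much as counting alone gives (Pearson dispersion). Among 285 genes of like read number the median was 1.49, and 29.5% scattered more. Just below ATXN7L3 in the estimate that chose it were PPIAP9, a cyclophilin pseudogene, at 1.03 (21 and 45 reads), the proteasome subunit gene PSMC1 at 0.91 (45 and 89 reads) and the kinase gene MAPK6 at 0.87 (36 and 69 reads). Over the 705 genes with that many reads the median size of the log2 change was 0.17, and 5.11% had all knockdown libraries above all controls.

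**Figure D1:**
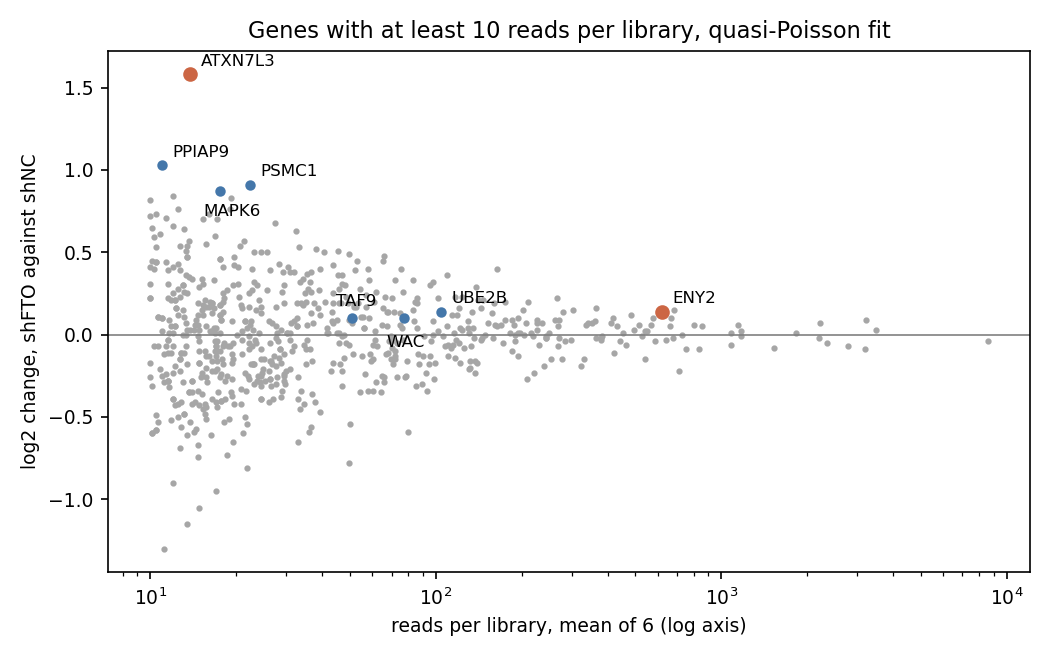
Each point is 1 of 705 genes that averaged 10 reads or more, with mean reads per library on a log axis against the log2 change from shNC to shFTO in the quasi-Poisson fit. ATXN7L3 is the highest point at 1.58, at 13.8 reads per library, where the scatter of all genes is wide, and ENY2 lies at 0.14 with 622 reads per library.

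The genes around ATXN7L3 were read for overlap. TMUB2, on the other strand, overlaps it by 125 bases and had 1 read in each of knockdown replicates 1 and 2. The antisense gene ATXN7L3-AS1 overlaps it by 1577 bases and had 0 reads. The library preparation was strand-specific per the labels, and these sources do not say how strand was treated in the counting. UBTF, a factor for ribosomal RNA transcription and the next protein-coding gene toward higher coordinates, had 5, 10 and 3 reads against 7, 5 and 2, or 8.77 ± 4.9 and 6.59 ± 3.44 FPKM (SD, n = 3 each), and its groups overlapped. HROB, ASB16, SLC4A1 and RUNDC3A, the other neighbours, were at 0.

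ATXN7L3B (ENSG00000253719), a retrogene related to ATXN7L3 that encodes a short protein able to bind ENY2, lies on chromosome 12 from 74537835 to 74545430, plus strand. It had FPKM of 0, 0 and 1.41 in the controls and 2.48, 4.2 and 2.54 in the knockdown. This is 1 read against 7, with a read ratio of 6.66 and an exact 95% interval of 0.855 to 300. Its groups did not overlap either, but the interval spans 1 and limma gave a log2 change of 1.58 (SE 1.03, adjusted p = 0.772). Reads of the retrogene were fewer than those of ATXN7L3 in every library. ATXN7L3P1, a pseudogene, was at 0 in all libraries, as was USP27X-DT.

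ENY2 (ENSG00000120533), the small subunit that also serves the TREX-2 mRNA export complex, lies on chromosome 8 from 109334324 to 109345954, plus strand. It was by far the most abundant of the 8. FPKM was 912.41, 903.48 and 834.41 in the controls and 1011.42, 968.26 and 933.2 in the knockdown, from 584, 619 and 530 reads against 729, 618 and 655. The groups did not overlap in FPKM, but the lowest knockdown library was only slightly above the highest control. That gap depended on how the libraries were scaled. Median-of-ratios scaling, with factors of 1.04 for knockdown replicate 3 and 0.9976 for control replicate 2, makes the ENY2 groups overlap. The means were 883 ± 42.7 and 971 ± 39.2 FPKM (SD, n = 3 each). The read ratio was 1.1, with a counting interval of 1.03 to 1.17.

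The change of ENY2 did not pass the test across all genes. The limma log2 change was 0.14 (SE 0.09, adjusted p = 0.772), and the fit to reads gave 0.14 (SE 0.06, adjusted p = 0.82). Over 14 alternatives the change ran from 0.10 to 0.25 and the adjusted p from 0.678 to 0.945. ENY2 reads scattered little within the groups, with a dispersion of 1.22 against a median of 2.36 for 27 genes of like read number. It ranked 40th by mean FPKM among 7057 genes with reads and took 0.566% to 0.686% of each library. ATXN7L3 ranked 580th. The housekeeping genes GAPDH and ACTB averaged only 14.67 and 12.5 reads per library, against 622.5 for ENY2 and 8595 for EIF4G2. Ranks and levels here therefore describe the composition of these libraries and may not be levels in the cells. The cause of that composition was not tested. Of the 3860 reads of the 8 genes 96.8% came from ENY2, and the other 7 genes had 125 reads together.

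The balance between the 2 adaptors can be read as ENY2 reads per ATXN7L3 read. It was 53.1, 88.4 and 265 in the controls and 42.9, 32.5 and 24.3 in the knockdown. The groups did not overlap, and the denominators are the 2 to 27 reads of ATXN7L3, the gene picked for its change. Exonic length in the table is the union of all exons, 6784 bases for ENY2, while its longest coding transcript has 2922, so the FPKM of ENY2 is lower than a value per length of that transcript would be.

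USP22 (ENSG00000124422), the catalytic subunit, lies on chromosome 17 from 20999596 to 21043760, minus strand. It was at 0 in all 3 controls and at 4.17, 6.27 and 2.85 FPKM in the knockdown, from 3, 4 and 2 reads. A count of 0 over the controls allows up to 3 reads, or 1.53 FPKM. The 9 knockdown reads are at least 2.85-fold higher than that limit before their own counting error is allowed for. The exact 95% counting interval of the ratio, which allows for it, had its lower end at 1.88. The limma log2 change was 2.39 (SE 1.02), with an adjusted p = 0.772 in limma. Over 12 alternatives its log2 change ran from 2.16 to 5.43, the latter with a pseudocount of 0.1, and its adjusted p from 0.466 to 0.79. With the controls at 0 the fitted size depends on the pseudocount. USP22 passed the filter on low values only through the knockdown. It was 1 of 5 genes, with EIF5B, RARS1, ZCCHC2 and ZNF503, at 0 in every control and with at least 2 reads in every knockdown library. The mirror pattern was found for 6 genes, among them CAV1 and TGFBR2. These genes were named after their values were seen.

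The alternative proteases gave almost no reads. USP27X (ENSG00000273820), on chromosome X from 49879484 to 49882558, had 1 read, in knockdown replicate 3, at 3.14 FPKM (limma log2 change 0.68, SE 0.81, adjusted p = 0.772). USP51 (ENSG00000247746), on chromosome X from 55484616 to 55489848, was at 0 in all 6 libraries, which allows up to 2.24 FPKM in the controls and 2.13 in the knockdown. Neither gene could be compared at this depth.

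ATXN7 and its paralogues were low. ATXN7 (ENSG00000163635), the subunit that anchors the module to SAGA and carries the polyglutamine tract expanded in spinocerebellar ataxia, lies on chromosome 3 from 63863155 to 64003462. It had 2 reads, both in knockdown replicate 1, at 1.23 FPKM, and did not reach the filter for a test. ATXN7L1 (ENSG00000146776), on chromosome 7 from 105604772 to 105876599, had FPKM of 1.23, 8.07 and 1.24 in the controls and 4.39, 2.48 and 4.5 in the knockdown. Control replicate 2 was the highest of the 6, with 7 reads, and the groups overlapped. The read ratio was 1.06 with a counting interval of 0.386 to 2.94. That interval leaves out the spread between libraries, which was 1.96 times what counting alone gives (Pearson dispersion). The limma log2 change was 0.40 (SE 0.95, adjusted p = 0.918). A change in either direction could have gone undetected at this depth.

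ATXN7L2 (ENSG00000162650), on chromosome 1 from 109483479 to 109492804, was the one gene of the 6 in the limma fit with an estimate below 0. Its FPKM was 3.91, 5.48 and 7.88 in the controls and 0, 0 and 3.57 in the knockdown, from 2, 3 and 4 reads against 0, 0 and 2. The groups did not overlap in FPKM. Control replicate 1 and knockdown replicate 3 both had 2 reads, however, so the gap between them comes only from their library totals. The read ratio was 0.211, with a counting interval of 0.0222 to 1.02. The limma log2 change was -1.98 (SE 1.02, adjusted p = 0.772), and 12 alternatives gave -4.08 to -1.62.

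**Figure D2:**
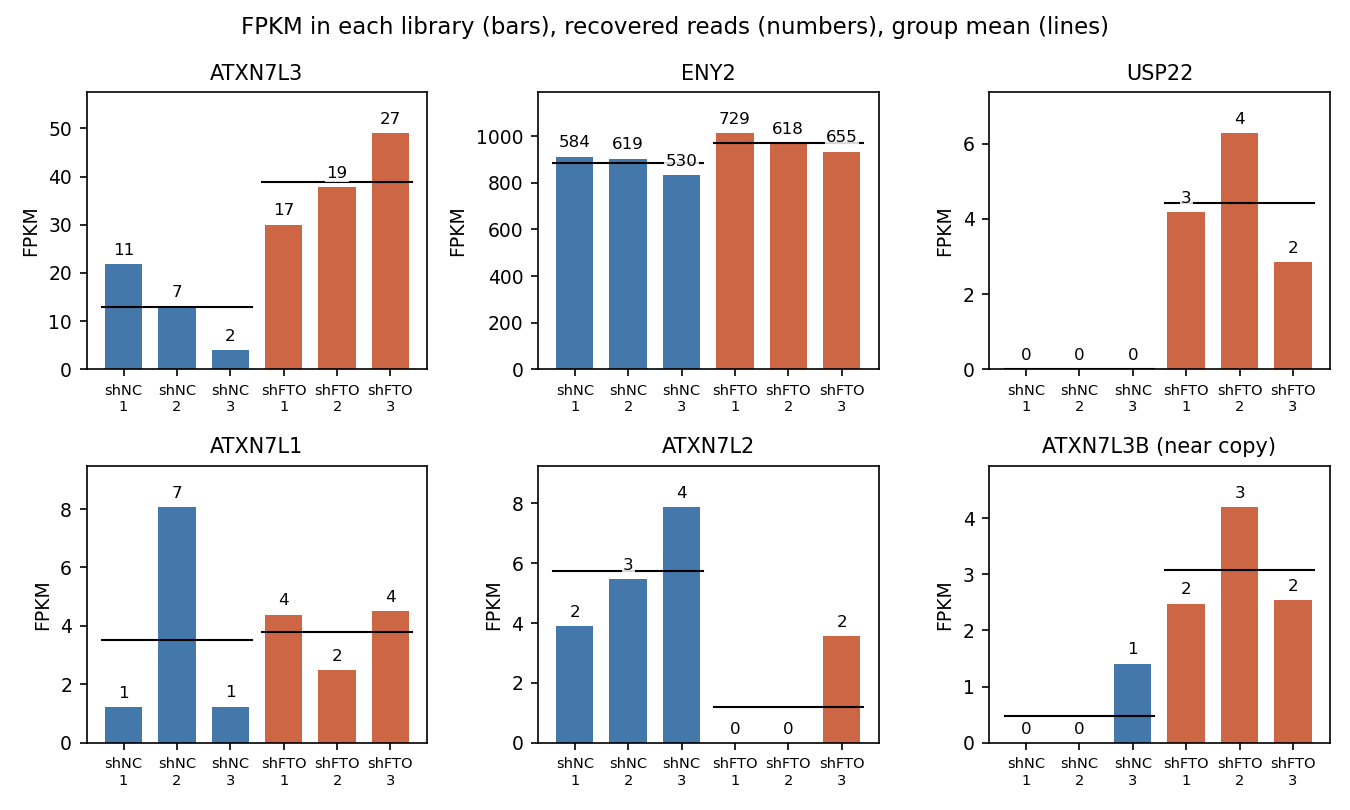
Bars give FPKM in each of the 3 shNC and 3 shFTO libraries for 5 module genes and for ATXN7L3B, numbers give the recovered reads and horizontal lines the group means. ATXN7L3 is higher in all knockdown libraries, from 17 reads upward against at most 11, while USP22, ATXN7L1, ATXN7L2 and ATXN7L3B rest on 0 to 7 reads a library.

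Counted together, 7 of the 8 genes had reads, 2 had at least 10 per library and 6 entered the limma fit. Of the 5 tested besides ATXN7L3, 0 were called at an adjusted p under 0.05, and 4 had estimates above 0. An unadjusted p under 0.05 was found for 1, USP22, beside 3.85% of all tested genes. Limma-voom on the recovered reads also called 0 of the 5, with 3 at an unadjusted p under 0.05, beside 2.58% of all genes it tested. The 3 were ENY2, USP22 and ATXN7L2. Over all 4932 genes tested limma called 2, or 0.0406%, both lower in the knockdown. The split turned with the settings: 5 of 7 calls were higher with a pseudocount of 0.1 and 7 of 9 without the filter. Estimates were above 0 for 2485 genes and below 0 for 2447, with a median of 0.00. Both genes that averaged 10 reads or more a library, ATXN7L3 and ENY2, had all knockdown libraries above all controls in FPKM. The share over the 705 genes of that depth was 5.11%. ATXN7L3 was chosen on this contrast, and the ENY2 groups overlap with median-of-ratios scaling. Among the 5 tested besides ATXN7L3 the knockdown was higher in FPKM without overlap for ENY2 and USP22, beside 2.9% of all tested genes. It was lower for ATXN7L2, beside 3.69%, although control replicate 1 and knockdown replicate 3 both had 2 reads of that gene. USP22 and USP27X, both at 0 in every control, entered only through the group in which they were high. The signs of their estimates were therefore fixed in advance, and these counts support nothing on their own.

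**Figure D3:**
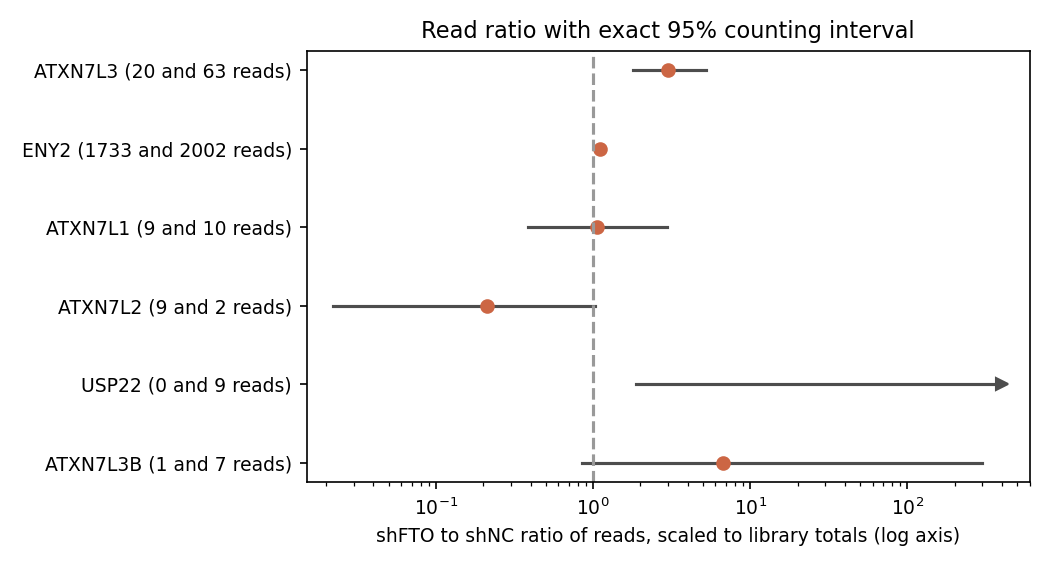
Points give the ratio of shFTO to shNC reads scaled to library totals on a log axis, and lines the exact 95% counting interval, with reads per group in brackets. The lines run from 1.03 to 1.17 for ENY2 and from 1.79 to 5.23 for ATXN7L3, the gene chosen on this contrast, and are far wider for the genes with few reads. USP22 has no point because its controls had 0 reads.

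By level over the 6 libraries the order was ENY2, ATXN7L3, ATXN7L1, ATXN7L2, USP22, USP27X, ATXN7 and USP51, at mean FPKM of 927, 25.9, 3.65, 3.47, 2.21, 0.523, 0.205 and 0. Every ENY2 value lay above every ATXN7L3 value. The range of ATXN7L3, 4.01 to 48.93, met that of ATXN7L1 only through control replicate 3. From ATXN7L1 down neighbouring ranges overlapped, and their order is not resolved.

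The remaining subunits of SAGA were sparse as well. Of the 5 genes of the acetyltransferase module 1 had reads, KAT2A, the acetyltransferase itself, with 2 reads, both in controls (exact permutation p = 0.4). Of 10 core genes 3 had reads, TAF9, TAF12 and TAF5L, and TAF9, a histone-fold subunit shared with TFIID, held 306 of 312 reads. TAF9 was at 65.3 ± 22.1 FPKM in the controls and 70.2 ± 10.4 in the knockdown (SD, n = 3 each). Summed core reads were 51.2 ± 16 and 53.5 ± 8.42 per 100000 (exact permutation p = 1). Without TAF9 the core list went from 5 reads to 1. TAF9 shares sequence with the overlapping gene AK6, which had 0 reads, so the assignment between them is uncertain. TRRAP, the activator-binding scaffold, and the splicing-factor subunits SF3B3 and SF3B5 had 4 reads in the controls and 13 in the knockdown. Their sums were 1.39 ± 1.63 and 4.32 ± 0.867 per 100000 without overlap, with an exact two-sided permutation p of 0.1, the smallest that 3 against 3 can give, and 0.72 adjusted over the 9 lists compared. SF3B3 had 13 of the 17 reads.

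The enzymes that write H2B ubiquitin, which the module removes, were better covered. Of 11 genes 10 had reads, and the sums were 185 ± 12.2 and 195 ± 31.6 reads per 100000 (exact permutation p = 0.7). UBE2B, a ubiquitin-conjugating enzyme, had 295 ± 56.5 and 322 ± 67.3 FPKM, and WAC, a partner of the RNF20 and RNF40 ligase, 58.4 ± 7.31 and 62.1 ± 13.1 FPKM (SD, n = 3 each). Their limma log2 changes were 0.12 (adjusted p = 0.806) and 0.07 (adjusted p = 0.952). UBE2A, the close paralogue of UBE2B, had 10 reads against 4 (log2 change -1.42, SE 0.95, adjusted p = 0.772). Of the 7 tested, 3 estimates were above 0 and 4 below, and 0 were called. RNF40, at 0 in every control, and CTR9 and LEO1, at 0 in every knockdown library, entered only through the other group. Their signs were fixed in advance.

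Of 13 other histone deubiquitinases 9 had reads, 98 in the controls and 87 in the knockdown (exact permutation p = 0.8). USP7 had 39 and 37 reads and USP15 40 and 32. USP12, with 7 and 2 reads, had the smallest p among them and an adjusted p of 0.772 (limma). Of 5 TREX-2 genes 4 had reads, 3 in the controls and 2 in the knockdown (exact permutation p = 0.7), while ENY2, which TREX-2 shares, had 3735. PCID2, with 2 control reads, had the smallest limma p of the TREX-2 genes (adjusted p = 0.772). The 6 other genes named after ataxins had 323 and 297 reads (exact permutation p = 0.3), led by the RNA-binding protein genes ATXN2L with 200 and 172 and ATXN2 with 71 and 66, and the repressor gene ATXN1L with 49 and 53. No gene of any of these lists was called, and the share of all tested genes called was 0.0406%.

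**Figure D4:**
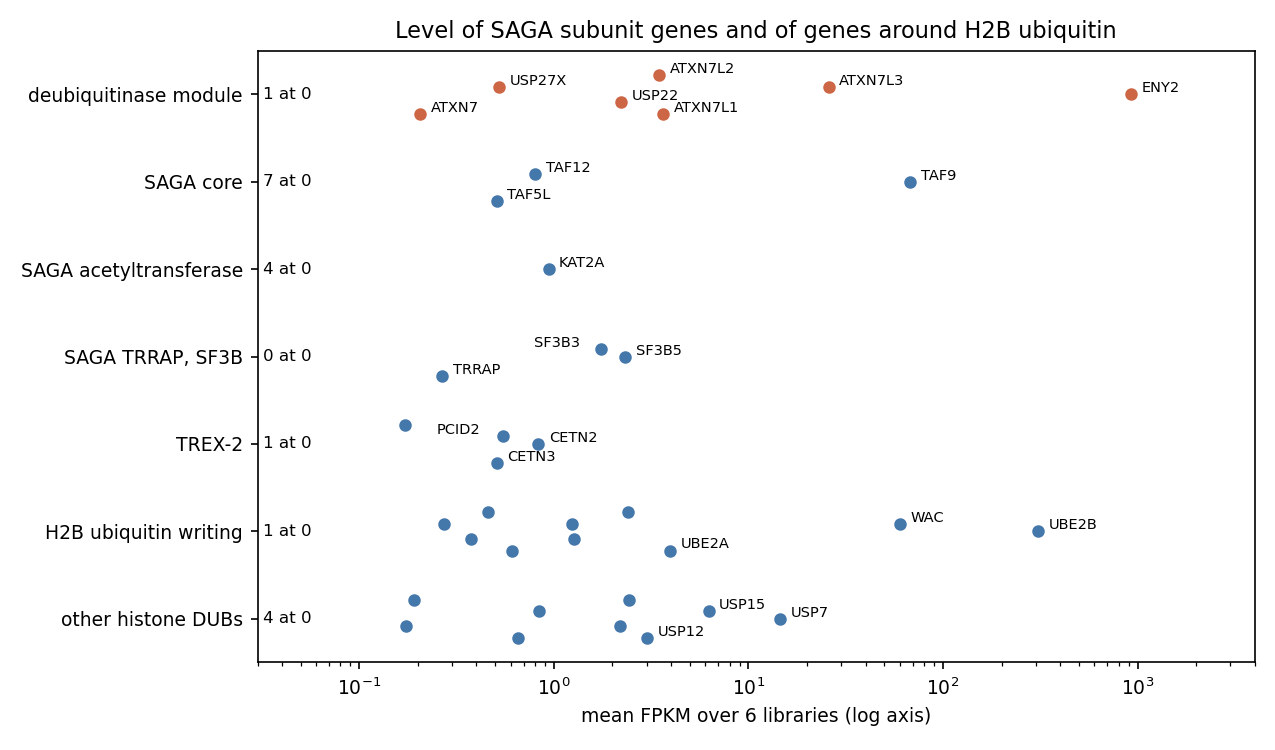
Points give the mean FPKM over the 6 libraries on a log axis for genes with reads, by SAGA module and by neighbouring pathway, and the number at the left counts genes at 0. ENY2 at 927 FPKM stands above all genes shown, and UBE2B, TAF9, WAC and ATXN7L3 are the others above 20 FPKM.

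The pattern of ATXN7L3 over the 6 libraries was compared with that of 704 other genes that averaged 10 reads or more, by Pearson's r of log2 reads per 100000. The values are a description, since all 6 libraries and the group difference that chose ATXN7L3 enter them. The most alike were TPM4, a tropomyosin gene, at 0.95, SRRM1, a splicing coactivator gene, at 0.95, MAP4K4, a kinase gene, at 0.92, FUBP1 at 0.92 and SRSF2, a splicing factor gene, at 0.89. TPM4 had 15.42, 9.6 and 8.63 FPKM in the controls and 17.49, 18.9 and 23.43 in the knockdown. The least alike were TTC14 at -0.98 and UBE2Z, a ubiquitin-conjugating enzyme gene, at -0.96. UBE2Z had 81.6, 110.89 and 123.34 FPKM in the controls and 80.7, 72.53 and 64.27 in the knockdown. ENY2 had an r of 0.82 with ATXN7L3 and ranked 22nd of the 704. Without logs 3 of the 5 most alike genes stayed among the 5.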

How the data were processed

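Poly(A) RNA of 3 shNC and 3 shFTO libraries was sequenced. The authors deposited 1 FPKM value per gene and library, with 2 decimals. The submitters' processing notes list DESeq2 1.50.2, StringTie 1.3.3b, HTSeq 0.6.1, HISAT2 2.2.1 and FastQC 0.10.1, and GRCh38, with no settings given. FPKM times exonic length gave whole reads within 0.05 for 100% of values above 0, at 93629 to 106245 reads per library, so 1 read is worth several FPKM in a short gene.

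The 4932 genes whose mean reached 1 FPKM in shNC or shFTO were tested with limma 3.58.1 (R 4.3.3, trend and robust moderation) on log2(FPKM + 1) with the group as the term. Benjamini-Hochberg adjustment ran over all of them, and an adjusted p under 0.05 was a call. Fold changes on this scale can understate those of low genes, but as means of logs they can also exceed the read ratio. ATXN7L1 had a log2 change of 0.40 at a read ratio of 1.06. Recovered reads were also fitted with a quasi-Poisson model (1021 genes with at least 30 reads) and with limma-voom. Summed lists were compared by exact two-sided permutation. Counting intervals were exact Clopper-Pearson, and 0 reads were taken to allow up to 3. The test code was tested on simulated data. Nothing beyond the labels says how separate the cultures were, so p-values measure the spread between these libraries.

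The members and gene lists were chosen with earlier results of these data known. Named genes were all members and near copies, up to 3 genes with the most reads and the smallest p of each list, the 3 protein-coding neighbours on each side, the 5 most and 2 least alike genes, and the 3 next below ATXN7L3 in its estimate. Alternatives were another pseudocount, other filters and scalings, a replicate block and leaving out each library. Sequences came from RefSeq and GENCODE 29. The sequence comparison of ATXN7L3 with its relative is not reported here.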

Additional observations from a re-analysis of the deposited data

How the results depend on the processing

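ATXN7L1, whose groups overlap, had log2 changes of 0.06 to 1.07 over the alternatives. In FPKM the groups of ATXN7L3, ENY2, ATXN7L2 and USP22 do not overlap, so leaving out a library could not turn their sign on that scale. The separation itself depends on scaling for 2 of them. With median-of-ratios scaling the ENY2 groups overlap, and ATXN7L2 had 2 reads in both shNC replicate 1 and shFTO replicate 3. USP27X had no estimate without shFTO replicate 3, which holds its 1 read. At the stricter filter of 10 reads per library ATXN7L3 and ENY2 remained. The number of genes called over the whole table moved: it was 2 as reported (0 higher in shFTO), 7 with a pseudocount of 0.1 (5 higher), 9 of 7057 without a filter (7 higher), 0 of 705 with at least 10 reads per library (31 at an unadjusted p under 0.05), 4 with upper-quartile scaling (2 higher), 11 with limma-voom (3 higher) and 0 of 1021 in the quasi-Poisson fit (57 unadjusted). Median-of-ratios scaling gave 2. Leaving out one library gave 2 to 9 calls, with 9 without shNC replicate 2 (6 higher), 8 without shFTO replicate 1 (4 higher) and 7 without shNC replicate 3 (5 higher), and in the quasi-Poisson fit 0 to 1. The cause was not tested. Of the 5 genes most like ATXN7L3, a filter of 30 reads per library left 2, since the other 3 lie below it. The ratio of summed core SAGA reads went from 1.05 to 0.182 without TAF9 (exact permutation p = 0.4), where 6 reads remain.

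With the replicate number as a block 17 genes were called, 13 of them higher in shFTO. Same-numbered libraries showed little shared deviation, with correlations of -0.00292, 0.0392 and -0.0116 for numbers 1 to 3. With so few reads per gene, counting error can hide a shared deviation. These correlations therefore cannot decide whether the numbers pair the samples, and the libraries were treated as unpaired.

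Depth limits what can be seen: 6 of the 8 genes rest on fewer than 20 reads over all libraries.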
